A study of Mus musculus with 2 samples.

Results

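The genes described here build or decorate the extracellular matrix outside its collagens: the elastic fibre and its microfibrils, the lysyl oxidases that cross-link it, the thrombospondins, and other secreted matrix glycoproteins. They were chosen by name, as a list of 34 genes, with earlier results from these arrays known. The genes were matched by symbol to array probe sets that the platform annotation pairs with 1 gene. Of the 34 genes, 31 had at least 1 such probe set, 63 probe sets in all, out of 18194 genes represented on the array. Loxl2 was left out because its 2 probe sets are annotated to another gene as well, and Fbn1 and Efemp2 were not analysed here.

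RNA was compared between Malat1 knockout and wildtype mouse embryonic fibroblasts (MEFs), which are primary mesenchymal cells cultured from minced embryos. Malat1 is a long noncoding RNA of the cell nucleus. Both genotypes were on a C57BL/6 background, with embryos taken at embryonic day 13.5, cells kept for 2 weeks in culture and no treatment. Each genotype was measured on 1 Affymetrix Mouse430_2 array, so the differences below have neither a replicate check nor a p-value, and precision is limited by having so few arrays. The sources used here do not say how the Malat1 allele was made or how many embryos contributed.

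Elastic fibres give skin, lung and arteries their recoil. Fibroblasts and smooth muscle cells secrete fibrillins, which assemble into microfibrils, and tropoelastin is laid down on that scaffold with the help of fibulins. Lysyl oxidases then oxidise lysines on elastin and collagen so that the chains become cross-linked. Thrombospondins, tenascins, periostin and other matricellular proteins bind cells, growth factors and structural fibres rather than forming the fibres themselves.

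The arrays were first set against their labels. The brightest of 7 Malat1 probe sets read 4.53 on the knockout array and 9.80 on the wildtype array (log2 signal), and 6 of the 7 were measured on the wildtype array alone. A probe set counted as measured when it reached the median of its array, 5.44 for the knockout and 5.39 for the wildtype, which served as a floor. Where a gene has several probe sets, the one with the highest mean of both arrays is called its representative, and a gene's difference is that of this probe set unless another is named. All 12 fibroblast markers, among them Col1a1, Pdgfra and Thy1, were measured on both arrays. The arrays also differed in sex-linked RNA. Xist, transcribed from the inactive X chromosome, read 11.49 in the knockout and 4.50 in the wildtype, and Y-linked Eif2s3y read 2.81 and 8.57 on the same arrays. Sex-linked expression and Malat1 genotype cannot be told apart with these arrays.

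Cochlin was the one member past the size that counted here, a 1.5-fold ratio. Coch encodes cochlin, a secreted protein best known as an abundant matrix component of the inner ear. Its only probe set read 6.75 in knockout MEFs and 8.25 in wildtype MEFs, a difference of -1.50 on the log2 scale, or 2.82-fold lower in the knockout. Among all 11295 genes measured on both arrays 1.61% were at least 1.5-fold lower and 0.832% at least 1.5-fold higher, and a count of 1 among 27 measured members (3.70%) is too small to set apart from that. From the lowest difference upwards, Coch ranked 7 among those genes. At the other end of the list stood Efemp1, which encodes a fibulin-family glycoprotein of basement membranes and other matrices. Its single probe set read 9.29 in the knockout and 8.79 in the wildtype, a difference of 0.50 that lay short of the 1.5-fold mark (1.41-fold).

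The stretches upstream of these 2 genes are shown because they had the most negative and the most positive difference of the list at a representative probe set. Coch met the rule for printing a promoter, and Efemp1 was added after its value was seen. Each line gives the 250 bases before the transcription start from RefSeq (GRCm38.p6), at chr12:51593091-51593340 on the plus strand for Coch and chr11:28852955-28853204 on the plus strand for Efemp1, read 5′ to 3′. Capitals mark matches, on either strand, to any of 6 motifs searched.
Coch: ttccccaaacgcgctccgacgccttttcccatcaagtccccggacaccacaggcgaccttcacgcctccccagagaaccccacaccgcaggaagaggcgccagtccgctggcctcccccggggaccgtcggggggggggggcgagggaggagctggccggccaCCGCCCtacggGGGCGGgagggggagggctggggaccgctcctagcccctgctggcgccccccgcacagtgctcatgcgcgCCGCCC
Efemp1: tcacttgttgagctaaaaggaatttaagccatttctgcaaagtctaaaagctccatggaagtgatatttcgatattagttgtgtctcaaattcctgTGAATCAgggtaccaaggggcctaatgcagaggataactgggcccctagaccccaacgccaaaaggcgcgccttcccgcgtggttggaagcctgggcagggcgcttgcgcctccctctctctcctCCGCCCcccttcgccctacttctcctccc

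The motifs searched were the TATA box TATAAA, the CCAAT box, the GC box GGGCGG, the AP-1 site TGANTCA, the SMAD element CAGAC and the TEAD site CATTCC, and no match overlapped another in these 2 stretches. Coch held the GC box at 3 places, starting 87, 76 and 6 bases before the start site, the outer ones on the minus strand. Efemp1 held 1 GC box on the minus strand, from 29 bases upstream, and 1 AP-1 match from 154 bases upstream. Among 32851 RefSeq promoter windows of the same length, 32.7% held a GC box and 6.75% an AP-1 match. The table had windows for 20 of the 34 genes, 29 windows in all. In these, 18 held a GC box (62.1%), 16 held CAGAC (55.2%, against 42.2% of all windows), 6 CCAAT (20.7% against 33.8%), 4 TATAAA (13.8% against 12.4%), 4 CATTCC (13.8% against 12.6%) and 2 the AP-1 match (6.90%). Windows of one gene share sequence, and a match is a description of the letters and not of binding.

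Below the 1.5-fold mark most members read lower in the knockout by small amounts. Of the 31 genes 27 were measured on both arrays, and 23 of these (85.2%) read lower in knockout than in wildtype MEFs, while 59.8% of all measured genes did. The median difference was -0.20 for the members and -0.05 for all genes. The middle of the member distribution, between its quartiles, ran from -0.33 to -0.09, and for all genes it ran from -0.18 to 0.08. A difference of -0.25 or lower was reached by 13 of the 27 members, and 1 member, Efemp1, reached 0.25 or higher. Matn4, at 0.2495 before rounding, fell just short. Of all 11295 genes measured on both arrays, 1846 reached -0.25 or lower and 1025 reached 0.25 or higher. Without Coch 22 of 26 members read lower, with a median of -0.19. The share of members reading lower was thus above the share of all genes, but the list was chosen with results from these arrays in view, and the 27 genes come from 1 RNA sample per genotype, so the error of the count cannot be estimated.

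**Figure D1:**
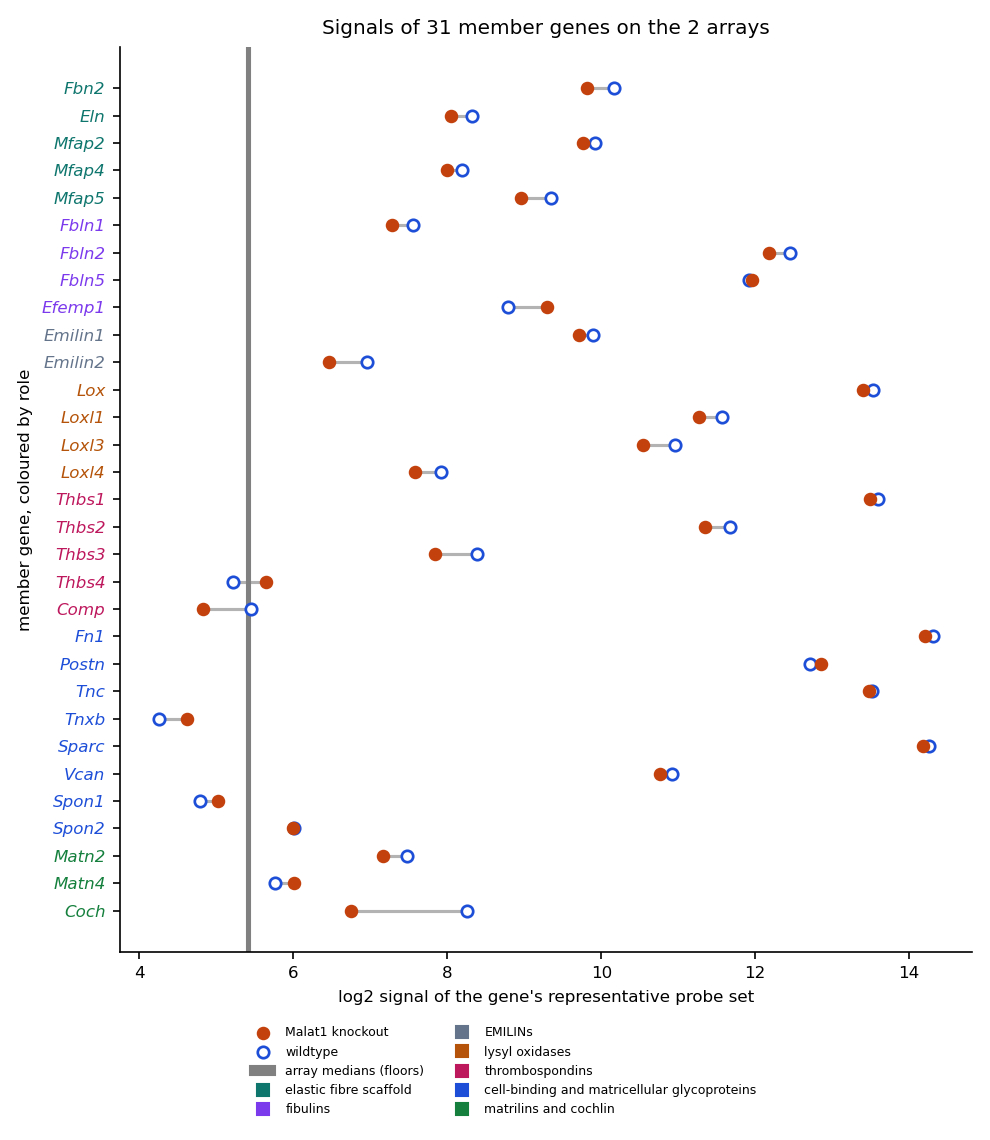
Log2 signal of the representative probe set of each of 31 member genes (x axis) on the Malat1 knockout array (filled) and the wildtype array (open), with gene names coloured by role and the grey band at the array medians of 5.44 and 5.39. Coch shows the widest gap, at 6.75 and 8.25, and most knockout points sit slightly left of their wildtype points.

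**Figure D2:**
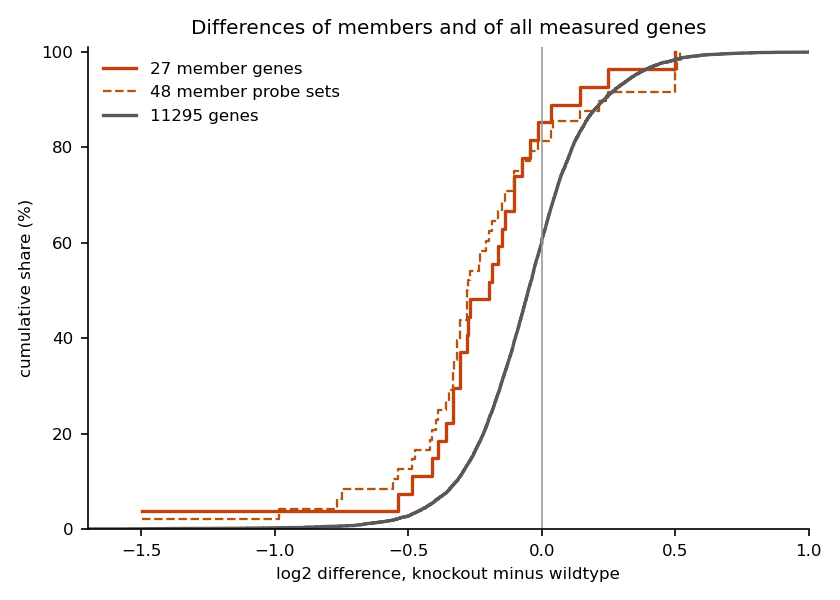
Cumulative share (y axis, %) of 27 member genes, 48 member probe sets and 11295 genes by log2 difference, knockout minus wildtype (x axis). The member curves lie left of the curve for all genes over most of the axis, with medians of -0.20 for member genes and -0.05 for all genes.

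Markers of fibroblasts were set beside the members. Of the 12 fibroblast markers 9 read lower in the knockout (75%, with 59.8% over all measured genes), with a median of -0.30 and a summed linear signal of 67434 in the knockout against 78633 in the wildtype. Within that list Col1a1 differed by -0.95, Pdgfra, the receptor used to define many mesenchymal cells, by -0.73, and Dcn, the proteoglycan decorin, by 0.74. A second bright Col1a1 probe set read 11.74 in the knockout and 12.07 in the wildtype, a smaller difference of -0.33. The other Pdgfra and Dcn probe sets were not measured on both arrays. Markers of smooth muscle, the other main maker of elastic fibres, had a median of 0.02, with 7 of 8 measured on each array. Their summed signal was 52399 in the knockout and 50457 in the wildtype, with Myocd below the floor on both arrays. Single markers differed both ways, with Des at 0.44 and Smtn at -0.30. The brightest, Acta2 (14.56 and 14.54) and Tagln (14.38 and 14.30), lie near the top of the arrays and limit what the sum can show. The same limit holds for the fibroblast sum, with Col1a2 at 14.43 and 14.58 and Vim at 14.30 and 14.25. The part of these 2 marker lists in the members' differences was not tested. In bulk RNA, fewer cells of a type and less RNA per cell cannot be told apart.

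Markers of other cells that an embryo culture can hold differed both ways. Macrophage markers, 7 of 8 on each array, summed to 2753 in the knockout and 3489 in the wildtype. Chondrocyte markers, 4 of 8 on each array, summed to 1167 and 1420, with Matn1, Matn3 and Col9a1 under both floors. Endothelial markers summed to 717 in the knockout and 360 in the wildtype, though only Kdr and Emcn of 8 were measured and Pecam1, Cdh5 and Tie1 were under the floor on both arrays. Epithelial markers, with 6 of 8 measured in the knockout and 4 in the wildtype, summed to 858 and 613, and Cdh1 and Krt14 were under both floors. Tendon markers summed to 4686 and 4363 (4 and 5 of 5 measured), led by Tnmd at 11.43 in the knockout and 11.06 in the wildtype. The median difference of the tendon markers measured on both arrays was -0.15, opposite in sign to the sums. Skeletal muscle markers summed to 3477 and 3072 (4 of 8 on each array), led by Acta1 at 11.62 and 11.40. Their median difference was -0.12, again opposite in sign to the sums, and Myod1, Myog, Tnnt3 and Actn2 were under both floors. Neural crest and Schwann markers summed to 245 and 184 (2 of 4 with a probe set, on each array). Osteoblast markers summed to 86.9 and 68.3, with Sp7 on the knockout array as the only one above a floor. What these lists contribute to the members' values was not tested.

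The scaffold of the elastic fibre comes first. All 5 of its measured genes had a negative difference at their representative probe set, though for Eln and Mfap2 another probe set was positive, with a median of -0.28 and a range from -0.39 to -0.15. Since 59.8% of all measured genes also read lower, groups of so few genes, here and in the families that follow, cannot be set apart from the rest by their counts. Fbn2, the fibrillin that is prominent in embryonic microfibrils, read 9.81 in the knockout and 10.17 in the wildtype, and its second probe set read 9.71 and 10.18, so its probe sets gave -0.36 and -0.47. Eln, tropoelastin itself, read 8.05 in the knockout and 8.33 in the wildtype, but its other probe set read 6.50 and 6.46. Elastin therefore had differences of -0.28 and 0.04 from the same RNA, and its direction depends on the probe set.

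The microfibril-associated glycoproteins, which bind fibrillin or elastin on the surface of the fibre, followed with similar sizes. Mfap5 read 8.95 in the knockout and 9.34 in the wildtype (-0.39), and a second probe set differed by -0.21. Mfap4, with 1 probe set, read 7.99 in the knockout and 8.19 in the wildtype (-0.20). The probe sets of Mfap2 pointed in opposite directions. The representative one read 9.76 in the knockout and 9.91 in the wildtype, and the other, whose _x_at suffix marks probes shared with other transcripts, read 7.31 and 6.80, a difference of 0.51.

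Fibulins, the calcium-binding glycoproteins that connect elastin to microfibrils and cells, did not share a direction. Fbln2 read 12.17 in the knockout and 12.45 in the wildtype, and its second probe set had a larger gap, 6.39 in the knockout against 7.14 in the wildtype, a difference of -0.75 that passed 1.5-fold (1.68-fold). Fbln1 read 7.28 in the knockout and 7.55 in the wildtype, while -0.23 and 0.22 came from its other 2 probe sets. Fbln5, which tethers elastin to cells during fibre assembly, was level at 11.95 in the knockout and 11.92 in the wildtype. Together with Efemp1 at 0.50, this left 2 fibulins lower and 2 higher, with a median of -0.12.

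EMILINs are elastic fibre glycoproteins, the best known of which, from Emilin1, lies between the elastin core and its microfibrils. Both read lower in the knockout. Emilin1 read 9.70 in the knockout and 9.89 in the wildtype (-0.19), and a second probe set differed by -0.42. Emilin2 read 6.47 in the knockout and 6.96 in the wildtype, a difference of -0.49 from its 1 probe set.

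Lysyl oxidases carry out the cross-linking step, and all 4 measured family members had a negative difference at the representative probe set, with a median of -0.32. Loxl3 had the most negative of the 4, at 10.54 in the knockout and 10.95 in the wildtype (-0.41). Loxl1, the family member tied to elastin renewal in mice, read 11.27 in the knockout and 11.57 in the wildtype, and its probe sets gave -0.31 and -0.28. Lox, the founding enzyme of the family, read 13.39 in the knockout and 13.53 in the wildtype, with -0.14 and -0.24 from 2 probe sets, and a further Lox probe set lay below the floor on both arrays. For Loxl4 the probe sets disagreed. Its representative read 7.58 in the knockout and 7.91 in the wildtype (-0.33), whereas the other read 6.36 and 5.84 (0.52). With the mean over measured probe sets the Loxl4 difference became 0.09 and that of Mfap2 0.18.

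Thrombospondins are large calcium-binding glycoproteins that bridge cell receptors, growth factors and matrix fibres. The 3 members measured on both arrays read lower in the knockout, with a median of -0.33. Thbs3 read 7.84 in the knockout and 8.38 in the wildtype, and its difference of -0.54 was the most negative after Coch among representative probe sets (1.45-fold). Thbs2, which limits angiogenesis and shapes collagen fibrils, had the closest agreement between probe sets. Its representative read 11.34 in the knockout and 11.68 in the wildtype, and the 3 probe sets gave -0.33, -0.33 and -0.32. Thbs1, an activator of latent TGF-beta, read 13.49 in the knockout and 13.59 in the wildtype (-0.10), with -0.35 from its other probe set.

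The remaining 2 members of the family sat at the floor. Thbs4 was measured in the knockout alone, at 5.64 against 5.22 in the wildtype, at least 1.18-fold higher. Comp, the cartilage oligomeric matrix protein, was measured in the wildtype alone, at 4.83 in the knockout against 5.44 in the wildtype, at least 1.01-fold lower. In each bound the measured signal is divided by the floor of the array where the gene was not measured.

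Cell-binding and matricellular glycoproteins showed the smallest differences at their representative probe sets, with a median of -0.06 over 6 genes. Fn1, fibronectin, the main adhesive glycoprotein that fibroblasts assemble into fibrils, read 14.21 in the knockout and 14.31 in the wildtype. Sparc, a collagen-binding matricellular protein, read 14.18 in the knockout and 14.25 in the wildtype. Tnc, tenascin-C, a modulator of cell adhesion that is made in embryos and wounds, read 13.48 in the knockout and 13.52 in the wildtype. These signals lie near the top of the arrays, whose highest values were 14.71 for the knockout and 14.69 for the wildtype.

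Other probe sets of these genes gave larger gaps. The second Fn1 probe set read 9.02 in the knockout and 9.79 in the wildtype, a difference of -0.77 (1.70-fold) beside -0.10 at the first. For Sparc the second probe set read 12.87 in the knockout and 13.42 in the wildtype (-0.56), while the remaining one, near the floor, differed by 0.50 the other way. The second Tnc probe set differed by -0.32 where the first gave -0.04. Vcan, the hyaluronan-binding proteoglycan versican, showed the widest range among probe sets that shared a sign. Its 3 measured probe sets read 10.76, 9.88 and 7.82 in the knockout and 10.92, 10.16 and 8.81 in the wildtype, for differences of -0.16, -0.28 and -0.99 (1.98-fold), and 5 more lay under both floors. With the median over all 8 probe sets, those 5 included, the Vcan difference turned to 0.07. Whether signal strength or the part of the transcript probed bears on these gaps was not tested.

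Postn, periostin, which promotes collagen cross-linking in connective tissue, read 12.86 in the knockout and 12.72 in the wildtype, the one gene of this group with a positive difference (0.14). Spon2, a spondin-family protein that can serve as an integrin ligand, was level at 5.99 in the knockout and 6.01 in the wildtype. Tnxb, tenascin-X, and Spon1, F-spondin, were under the floor on both arrays, with all 4 Spon1 probe sets there. Of the matrilins, adaptor proteins that link matrix fibres and proteoglycans, Matn2 read 7.16 in the knockout and 7.47 in the wildtype, and both of its probe sets were lower (-0.31 and -0.40). Matn4 read 6.01 in the knockout and 5.76 in the wildtype (0.25) from its 1 probe set.

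**Figure D3:**
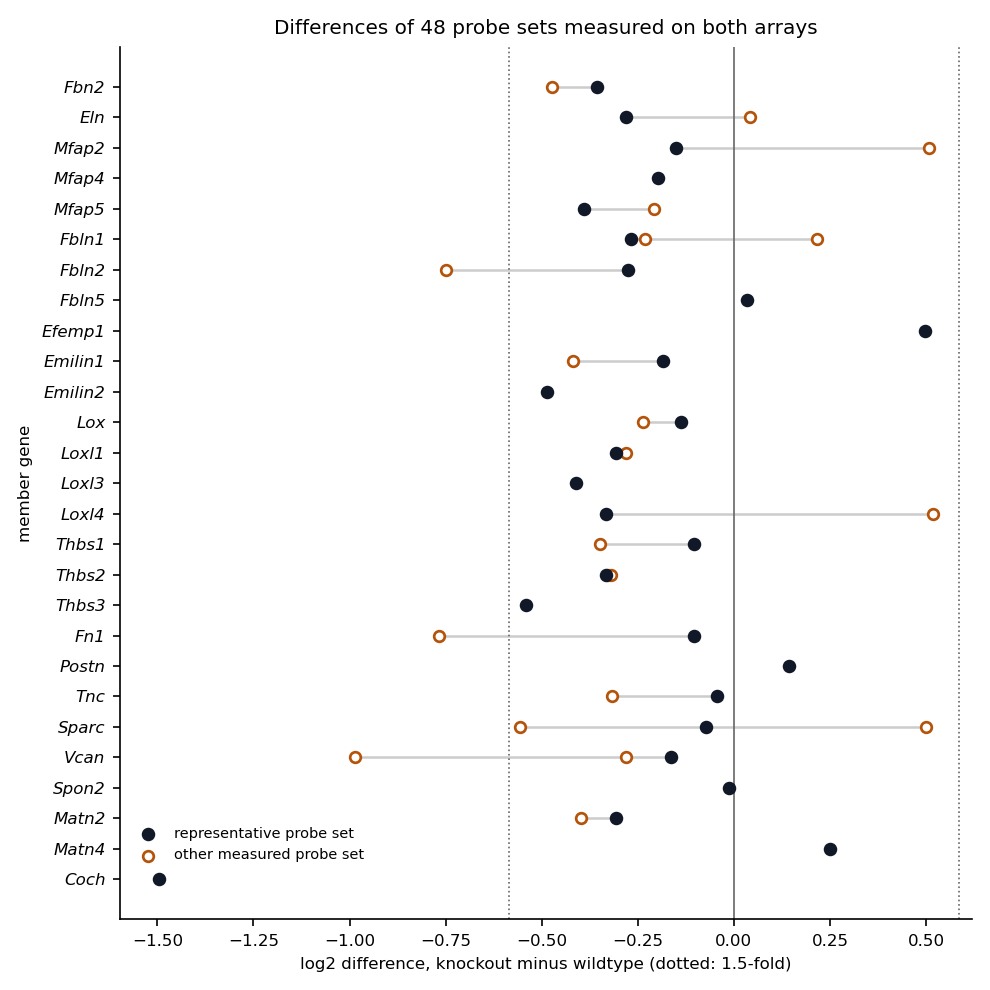
Log2 difference, knockout minus wildtype (x axis, 1.5-fold marked by dotted lines), of the 48 member probe sets measured on both arrays, with the representative probe set of each of 27 genes filled and the others open. Probe sets of Coch, Vcan, Fn1 and Fbln2 lie past 1.5-fold on the lower side, and the lines of Eln, Mfap2, Fbln1, Loxl4 and Sparc cross 0.

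Taken by probe set, 48 of the 63 were measured on both arrays, and 39 of the 48 (81.2%) read lower in the knockout, against 61.7% of all measured probe sets. The median over these 48 was -0.28, and -0.06 over all. Of the 48, 4 (8.33%) were at least 1.5-fold lower, those of Coch, Vcan, Fn1 and Fbln2 given above, against 2.25% of all, and 0 were at least 1.5-fold higher. Among the 17 members with 2 or more measured probe sets, all probe sets read lower for 12 (70.6%), against 41.8% of the 4883 genes of that kind on the array. The other 5, Eln, Mfap2, Fbln1, Loxl4 and Sparc, had probe sets of both signs. Probe sets of the members also disagreed more in size, with a pooled SD within a gene of 0.32, against 0.20 over all 4883 genes. Probe sets of one gene share their RNA and are not replicates, and the list was chosen with results from these arrays in view. At the representative probe set 18 of the 27 members differed by less than that pooled SD of 0.32. The 9 that differed by more were Coch, Thbs3, Efemp1, Emilin2, Loxl3, Mfap5, Fbn2, Loxl4 and Thbs2. How many of all measured genes pass 0.32 was not counted, so these 9 cannot be set against a background. The value 0.32 comes from the members' own probe sets and does not measure variation between arrays, so passing it singles out none of them. Among them, Loxl4 had another probe set at 0.52.

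The arrays were also rescaled in 3 other ways, since small differences of one sign can follow from scaling. With every knockout value shifted so that the measured probe sets had a median difference of 0, 21 of 27 members read lower, with a member median of -0.14, while 47.6% of all genes did. After quantile normalization 22 read lower (median -0.13), against 44.9% of all genes, and after loess centring 23 (median -0.16), against 47.4%. Tnc and Spon2 changed sign in at least 1 of the scalings, and the other 25 members did not. The median of the cell-binding group became 0.00 with the first of these scalings, and those of the other groups stayed negative. Coch ran from -1.50 to -1.39, and Efemp1 reached 0.59 after quantile normalization, just past 1.5-fold.

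**Figure D4:**
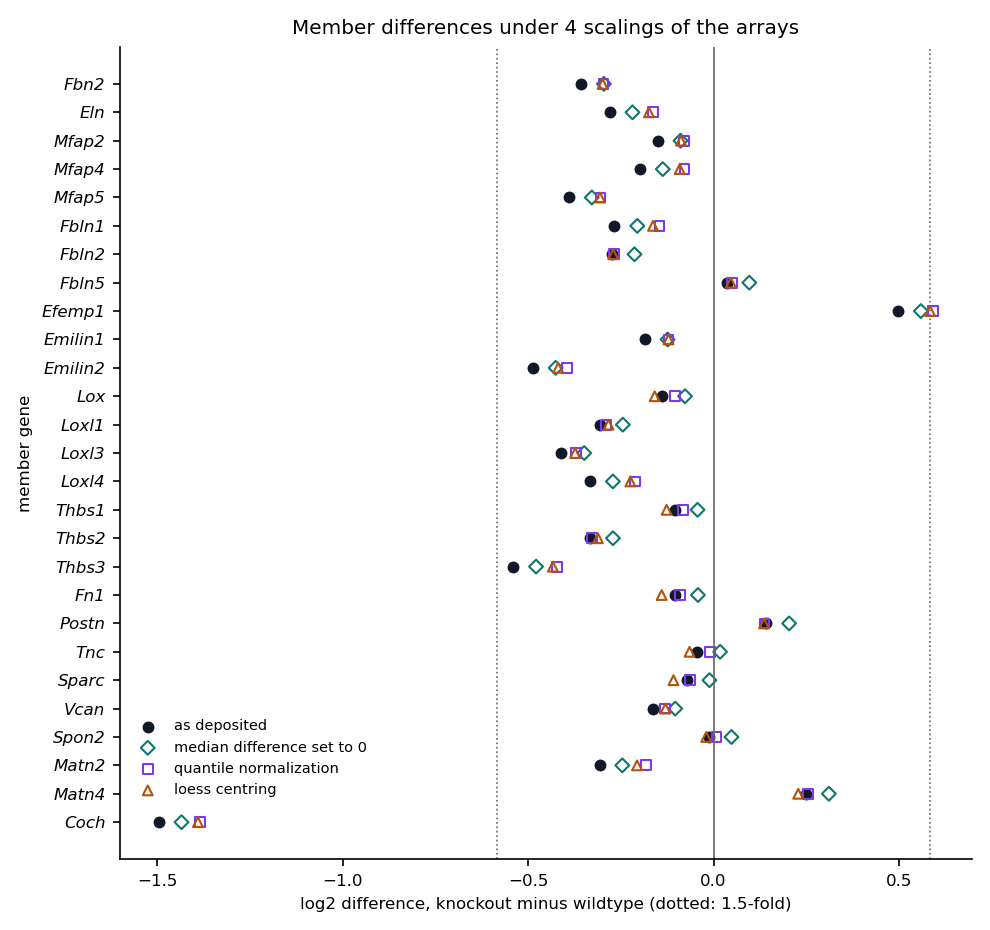
Log2 difference, knockout minus wildtype (x axis, 1.5-fold marked by dotted lines), of 27 member genes as deposited and under 3 other scalings of the arrays. The 4 points of a gene lie close together, and Tnc and Spon2 have points on both sides of 0.

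Genes that work beside the members were compared through 8 further lists, again by counts and medians. Latent TGF-beta is stored on microfibrils by latent TGF-beta binding proteins. In that list 6 of 8 measured genes read lower, with a median of -0.09 and Ltbp2 at -0.34, Tgfb3 at -0.30 and Tgfb1 at -0.24. Among other modifiers of microfibrils and elastic fibres, 7 of 10 read lower, with a median of -0.10, Adamtsl3 at -0.55, Adamtsl4 at -0.47 and Adamtsl2 at 0.39. Genes that supply copper to lysyl oxidases or process propeptides were divided, with 4 of 9 lower and a median of 0.02. Within that list Bmp1, the protease that cleaves the propeptide of lysyl oxidase and of procollagen, read 9.59 in the knockout and 9.99 in the wildtype, while Tll1, a related protease, differed by 0.25 and Pcolce, an enhancer of procollagen processing, by -0.24.

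Further matrix glycoproteins outside the 34 included 1 of 15 at least 1.5-fold lower, a count too small to set apart from the 1.61% of all genes, with 10 reading lower and a median of -0.15. That gene was Fndc1, a fibronectin type III domain protein, at 7.17 in the knockout and 8.27 in the wildtype (-1.10), and its other probe set differed by 0.50 the other way. Aebp1, a collagen-binding matrix protein, differed by -0.48, with -0.61 from a second probe set, and Thsd7a by 0.48. Partners of versican and hyaluronan had 2 of 6 lower and a median of 0.21. Has2, a hyaluronan synthase, read 9.73 in the knockout and 9.31 in the wildtype, with 0.42 and 0.55 from its probe sets, Tnfaip6, a hyaluronan-binding protein, differed by 0.25, and Hapln3, a link protein, by 0.23.

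Proteases that cut versican read lower in 3 of 4 cases, with a median of -0.22. Adamts4 was 7.37 in the knockout and 7.98 in the wildtype, a difference of -0.61 that passed 1.5-fold, with -0.19 from its second probe set, and Adamts5 and Adamts9 differed by -0.39 and 0.05. Receptors for fibronectin and matricellular proteins had 10 of 15 lower and a median of -0.13. The alpha subunit of the classical fibronectin receptor, Itga5, read 8.06 in the knockout and 8.68 in the wildtype (-0.62), past 1.5-fold, and its other 2 measured probe sets gave -0.87 and -0.44. Stab1, a scavenger receptor that takes up the Sparc protein, differed by -0.41 and Itga8, which pairs with the beta1 subunit to bind nephronectin and fibronectin, by 0.40. Regulators of matrix genes, from TGF-beta receptors to SRF and TEAD cofactors, had 11 of 15 lower and a median of -0.05, equal to that of all genes, with Tgfbr3 at -0.53, Tgfbr2 at -0.34 and Twist1 at -0.27, although a second Tgfbr2 probe set differed by 0.38. These shares stand beside the 59.8% of all measured genes that read lower. Adamts4 and Itga5 were the only genes past 1.5-fold in their lists, too few to set apart from the 1.61% of all genes at least 1.5-fold lower.

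**Figure D5:**
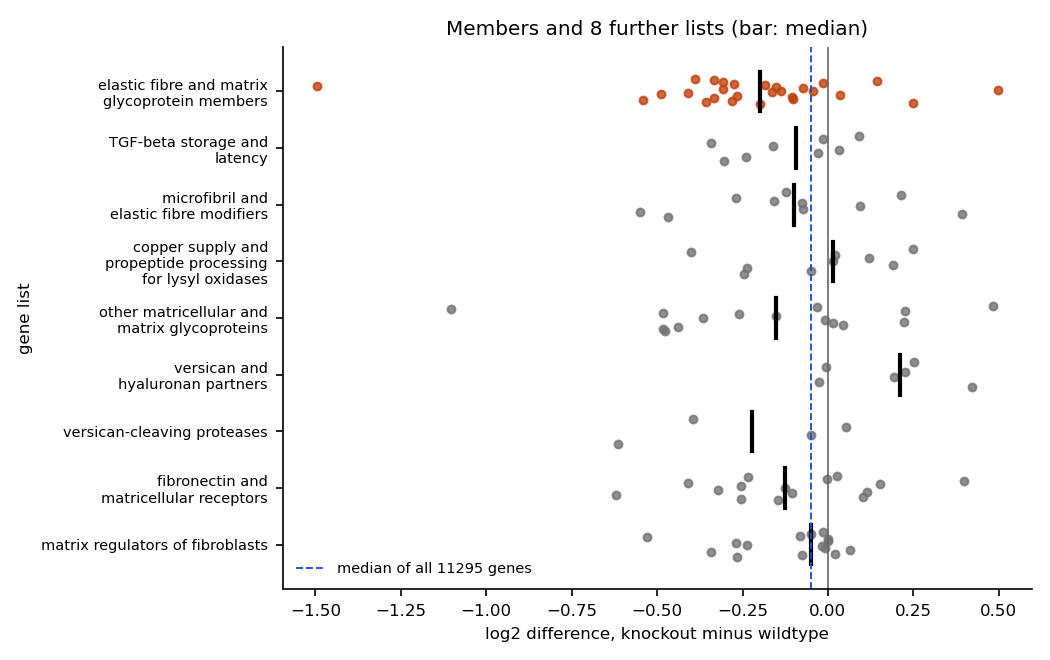
Log2 difference, knockout minus wildtype (x axis), of genes measured on both arrays in the member list (top) and 8 further lists (y axis), with black bars at list medians and the dashed line at the median of all 11295 genes, -0.05. The member median lies at -0.20, the versican-cleaving proteases at -0.22 and the versican and hyaluronan partners at 0.21.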

How the data were processed

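The table the authors deposited held a single value for each probe set on each array, read here as log2 signals. That scale was inferred from the range, 2.09 to 14.71; the summarization method, software and genome build were not given in the sources used here. Per the labels' protocols, 100 ng of total RNA was used for biotin labelling. Of 45101 probe sets, 64 were controls, and 34958 had 1 gene symbol in the platform annotation. A gene was represented by its probe set with the highest mean. Differences are knockout minus wildtype, and the median over measured probe sets (-0.06) was under the recentring limit of 0.1, so values were used as deposited. With 1 array per genotype no statistical test between the arrays was run. The named genes are the 34 members, Malat1 and the 3 measured genes of each further list with the widest difference. Sex-linked, marker and promoter examples beyond this rule were named after values were seen. The members and lists were chosen with earlier results of these data known. The 1.5-fold call was tried on simulated data, with preset noise and changes larger than every member difference but that of Coch. The changed genes there were brighter than Coch, so that trial does not cover Coch or the small differences described here. Python 3.11.15, pandas 2.3.3 and statsmodels 0.14.6 were used. Alternatives covered 3 scalings, floors, added constants, probe set choices and a 2-fold size.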

Additional observations from a re-analysis of the deposited data

How the results depend on the processing

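The count of members reading lower and their median kept their direction under the 11 alternatives of scaling, floor, added constant and probe set choice. The counts ran from 17 of 20 members (floor at the 75th percentile) to 24 of 31 (no floor), with the lowest share, 20 of 27, from the median over all probe sets, and the medians from -0.23 to -0.13. In the same order these shares were 85.0%, 77.4% and 74.1% of members, against 64.9%, 46.2% and 57.8% of all genes, so the background moved as well. The count at least 1.5-fold lower was 2 both with no floor and when the floor was lowered to the 40th percentile, where Comp joined Coch, and 0 once the floor was raised to the 75th percentile, which leaves Coch out. Of all genes, 269 of 18194 were at least 1.5-fold lower with no floor, 206 of 12887 at the 40th percentile and 67 of 6844 at the 75th. The count at least 1.5-fold higher was 1 after quantile normalization, namely Efemp1, beside 165 of all 11297 genes. Member counts this small cannot be set apart from those of all genes. Over single members and alternatives, 278 of 290 differences moved by less than 0.20, the pooled SD between probe sets of one gene over all genes (0.32 over the members), and 12 moved by more, 11 of them when other probe sets entered and 1 for Coch, at -1.10 with 64 added to linear values. A change of floor cannot alter a gene's difference. Dropping _x_at and _s_at probe sets left the representatives of the measured members in place. Those settings therefore add nothing to the weight of the 278. Leaving out Coch was chosen after seeing the data. No paired analysis was possible because only 1 array was made per genotype. Signals near the floor (Comp, Thbs4, Matn4 and Spon2) or near the top of the range (Fn1, Sparc, Tnc, Thbs1 and Lox) limit what these genes can show.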
